A study of Mus musculus with 11 samples.

Results

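The Six-family and Zic-family genes examined here were 8 transcription factor genes, Six2, Six3, Six4 and Six6 and Zic1, Zic2, Zic4 and Zic5, of the 21779 coding genes of the mouse in the gene table used (RefSeq, mm10). They were chosen by family and because they stand as pairs on 4 chromosomes, with earlier results of these data known, so the places of peaks at them are a description and were not tested. The data came from chromatin immunoprecipitation with an antibody to GFP, with libraries of whole cell extract beside it. In all, 11 libraries were sequenced from neural stem cells of C57BL/6 mice, derived from embryos at E14.5 and kept for up to 20 passages. With micrococcal nuclease (MNase) as the means of fragmentation, there were 2 libraries from Smchd1 GFP/GFP cells, 1 male and 1 female, 2 from wild-type cells, 1 male and 1 female, and 1 of whole cell extract from female cells. With 30 min of sonication in non-ionic detergent, there were 2 libraries each from Smchd1 GFP/GFP cells, wild-type cells and whole cell extract, all of them female. The GFP/GFP cells are homozygous for a knock-in allele that fuses GFP to Smchd1, and wild-type cells lack the tag. MNase libraries were made to assess binding on autosomes and sonicated ones to assess binding on the inactive X. The authors summarised each experiment as 1 list of peak positions, 2840 peaks for MNase and 2196 for sonication. Values per library, and with them the spread between replicates and the sequencing depth, are therefore unknown, and a gene without a peak had none called, which is not a measure of no binding. Peak positions hold no expression values, so the labelled cell type was not checked against marker genes.

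Six-family proteins bind DNA through a homeodomain beside a Six-type domain, and Zic proteins bind through zinc fingers related to those of the Gli factors of Hedgehog signalling. Both families pattern the early embryo: Six3 and Six6 act in the forebrain and eye field, Six2 in the progenitors of the kidney, Six4 in muscle, and the Zic genes in the neural tube, cerebellum and neural crest. Many developmental regulators of this kind are known as targets of Polycomb repression. Smchd1, a member of the SMC family of chromosome proteins, is known for silencing on the inactive X and at clustered autosomal genes such as the Hox genes.

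The promoters of 7 of the 8 genes were matched in the RefSeq promoter table (mm10), which gives 250 bases before and 50 after a start site. Those of Zic1 and Zic4 are shown because the nearest MNase peak lies between them. Each sequence holds the 250 bases before the start, read 5′ to 3′ on the strand of the gene, with CpG dinucleotides in capitals. Zic1 is on the minus strand at chr9:91365769-91366018 and Zic4 on the plus strand at chr9:91368722-91368971.
Zic1: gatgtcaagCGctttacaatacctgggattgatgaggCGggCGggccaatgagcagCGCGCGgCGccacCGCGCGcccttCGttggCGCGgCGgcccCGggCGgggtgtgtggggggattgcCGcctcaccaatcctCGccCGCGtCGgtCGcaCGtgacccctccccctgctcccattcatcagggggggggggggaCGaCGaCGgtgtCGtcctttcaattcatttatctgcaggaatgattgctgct
Zic4: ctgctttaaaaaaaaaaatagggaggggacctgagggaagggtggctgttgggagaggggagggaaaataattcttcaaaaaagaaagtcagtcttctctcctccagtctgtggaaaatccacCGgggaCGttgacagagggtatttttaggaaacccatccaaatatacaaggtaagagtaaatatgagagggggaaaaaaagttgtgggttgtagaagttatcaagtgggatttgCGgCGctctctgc
Between the start of Zic1 and the start of Zic4 the composition of the letters changes, with 27 CpG dinucleotides and 66.0% G or C before Zic1, against 4 CpG dinucleotides and 44.4% G or C before Zic4.

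The promoter of Six3os1, a long non-coding RNA gene that overlaps Six3 and is read from the opposite strand, is shown because an MNase peak covers its start. It lies on the minus strand at chr17:85618347-85618646, and the 154 bases inside the peak are in capitals.
Six3os1: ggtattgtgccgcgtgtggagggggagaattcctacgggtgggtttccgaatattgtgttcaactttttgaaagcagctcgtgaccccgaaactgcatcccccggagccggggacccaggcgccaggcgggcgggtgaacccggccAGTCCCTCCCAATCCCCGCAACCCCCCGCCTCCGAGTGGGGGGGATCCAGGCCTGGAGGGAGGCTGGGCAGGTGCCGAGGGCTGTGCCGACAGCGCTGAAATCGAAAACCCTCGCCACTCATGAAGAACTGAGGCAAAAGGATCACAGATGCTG

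The promoters of Six6 and Six4 are shown because both hold a match to TCAGGTT, the core of sites bound by Six-family proteins. The matches are in capitals. In Six4 the match is on the opposite strand, so the strand shown reads AACCTGA. Six6 lies on the plus strand at chr12:72939632-72939881 and Six4, here at the lower of its 2 listed start sites, on the minus strand at chr12:73113246-73113495.
Six6: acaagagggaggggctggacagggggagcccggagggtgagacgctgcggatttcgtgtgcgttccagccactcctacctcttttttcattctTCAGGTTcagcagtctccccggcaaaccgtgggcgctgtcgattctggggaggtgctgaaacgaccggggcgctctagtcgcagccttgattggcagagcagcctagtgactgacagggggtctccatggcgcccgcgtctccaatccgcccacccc
Six4: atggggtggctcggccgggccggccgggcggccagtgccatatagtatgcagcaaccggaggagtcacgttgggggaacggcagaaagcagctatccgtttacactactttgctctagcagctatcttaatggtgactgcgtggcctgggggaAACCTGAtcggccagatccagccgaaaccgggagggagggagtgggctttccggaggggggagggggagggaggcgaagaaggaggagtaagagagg

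The promoter of Six2 is shown, with CpG dinucleotides in capitals, as the most CpG-rich of the set at a gene with no peak within 5 kb. It lies on the minus strand at chr17:85688255-85688504 and holds 26 CpG dinucleotides.
Six2: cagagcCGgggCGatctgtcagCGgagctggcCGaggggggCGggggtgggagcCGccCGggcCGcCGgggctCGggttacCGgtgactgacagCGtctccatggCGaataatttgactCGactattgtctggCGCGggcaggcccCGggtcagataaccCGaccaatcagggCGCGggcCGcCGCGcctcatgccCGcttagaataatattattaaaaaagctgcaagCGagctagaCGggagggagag

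MNase peaks lay at or within 5 kb of 4 of the 8 genes: Zic1, Zic4, Six3 and Six6. The other 4, Zic2, Zic5, Six2 and Six4, had none. Among all coding genes, 5.28% had an MNase peak within 5 kb (1151 of 21779). Gene length affects such a count, and among the 8359 coding genes no shorter than the shortest and no longer than the longest of the 8 (4.95 to 25.5 kb), 3.17% had a peak. Since the genes were chosen with peak positions known, nothing further is read from these shares. The 4 genes shared 6 distinct peaks, of which 5 lay inside one of the 8 genes. The peaks were 300 to 750 bp wide with a median of 600 bp, and the whole MNase list had a median of 450 bp and a range of 300 to 16200 bp.

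**Figure D1:**
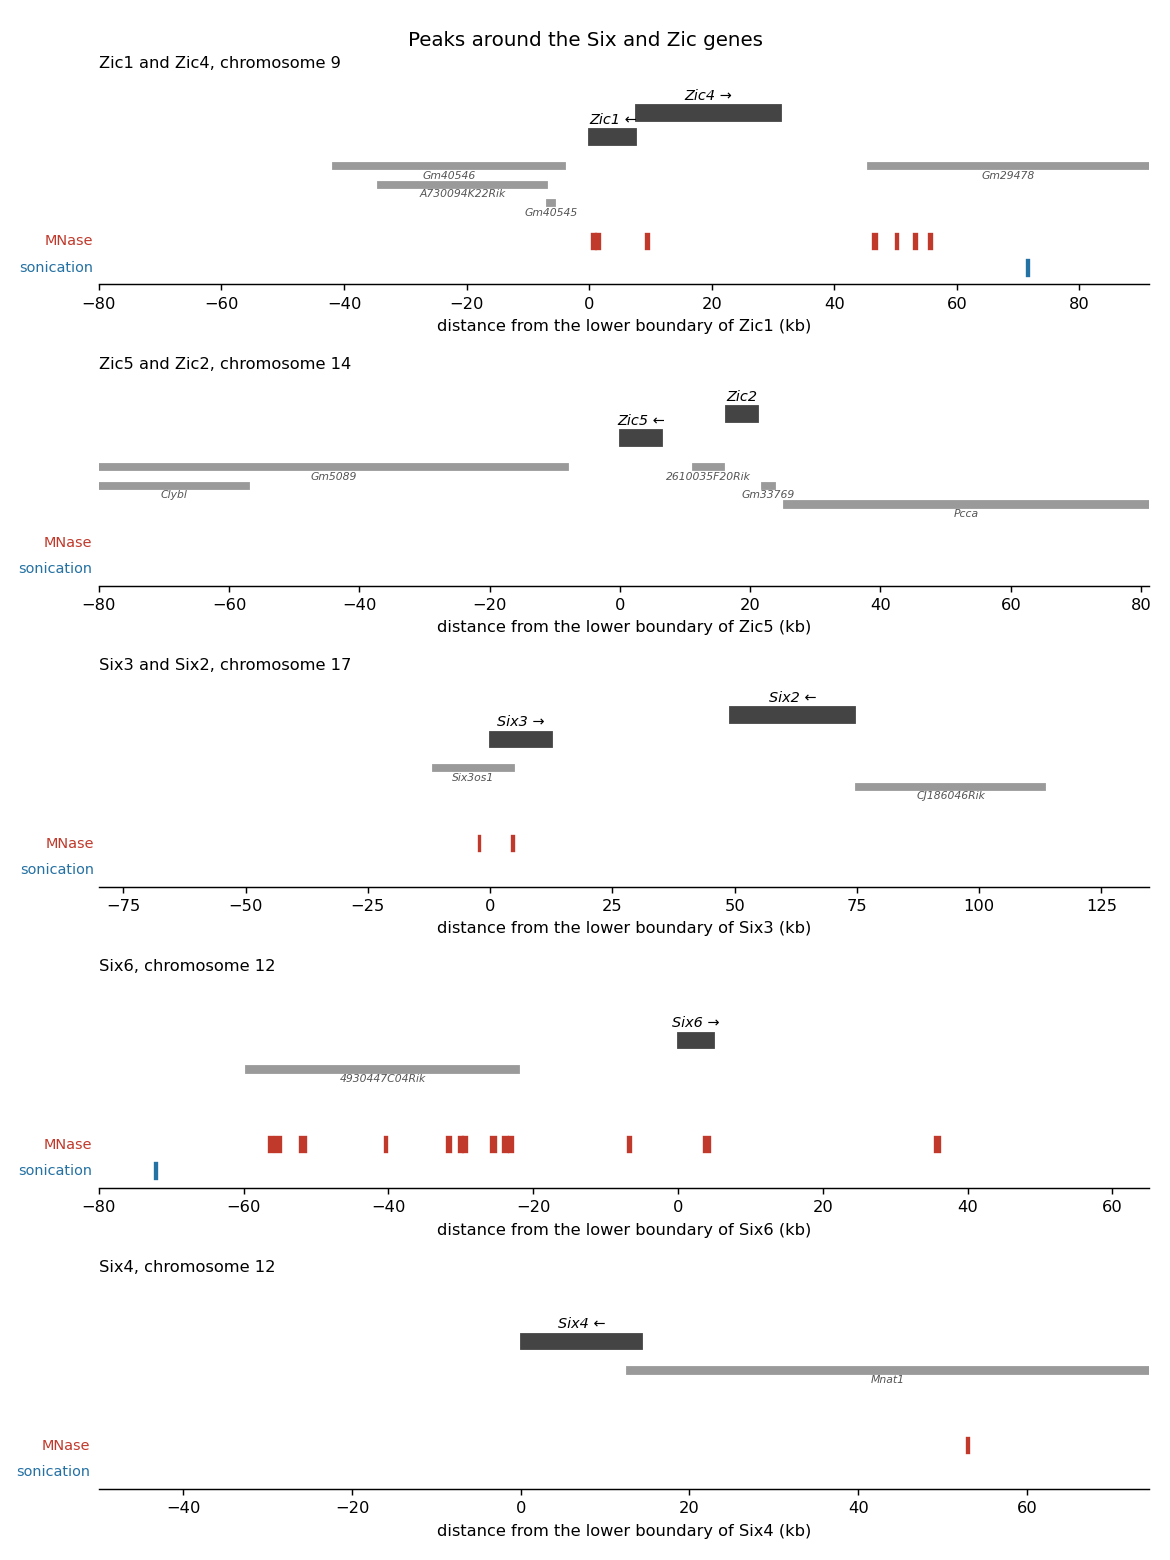
Map of 3 gene pairs and of Six6 and Six4, each in its own panel: the horizontal axis is the distance in kb from the lower boundary of the first gene, dark boxes are Six-family and Zic-family genes with an arrow for the strand where the promoter table gives it, grey boxes are neighbouring genes, and the marks below are MNase peaks (red) and sonication peaks (blue), drawn with a minimum line width. MNase peaks lie in Zic1, Zic4, Six3 and Six6 and are absent from Zic5, Zic2, Six2 and Six4.

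Zic1 and Zic4, which act together in cerebellar development, adjoin on chromosome 9 and are transcribed away from each other. Zic1, from 91358058 to 91365768, had 3 MNase peaks within 5 kb, and 0.68% of coding genes had 3 or more. A pair of these, from 91358551 to 91359150 and from 91359151 to 91359750, touched each other without a gap and formed a single stretch near the 3′ end of Zic1. With adjoining peaks merged, Zic1 had 2. Of all coding genes, 1.34% had 2 or more peaks, counted unmerged. The lower of the pair began 493 bp inside that end, and the upper lay 6018 bp beyond the start of Zic1. The peaks thus sat at the opposite end of the gene from its promoter. Together with the third, they covered 10.2% of Zic1 and its 5 kb flanks.

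The third peak, 600 bp from 91367251 to 91367850, lay in the stretch between the start sites of Zic1 and Zic4. It was 1483 bp upstream of the Zic1 start and 1122 bp upstream of the Zic4 start, so it overlapped neither of the promoters printed above. The stretch between the starts was 3203 bp long, and the peak covered 18.7% of it. The annotated span of Zic4, from 91365631 to 91389351, includes transcripts that begin earlier and overlaps the span of Zic1 by 138 bp. By that span the peak lay inside Zic4, and it was the only MNase peak within 5 kb of that gene.

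Zic5 and Zic2 had no peak of either list within 100 kb. Zic2 is known as a gene of forebrain midline development and Zic5 as a gene of neural crest. They stand 9.73 kb apart on chromosome 14, Zic5 from 122459160 to 122465658 and Zic2 from 122475384 to 122480328, with the non-coding gene 2610035F20Rik between them. The nearest MNase peak, 900 bp wide, was 157 kb from Zic2 and 171 kb from Zic5, inside Pcca, the gene of a propionyl-CoA carboxylase subunit. Pcca is the next coding gene and begins 4.04 kb from Zic2. The nearest sonication peak lay in Clybl, the next coding gene on the other side, 195 kb from Zic5. With 5 kb flanks, the Zic1 and Zic4 pair, 41.3 kb in all, held 3 MNase peaks, and the 31.2 kb of the Zic5 and Zic2 pair held 0. Only 5.28% of all coding genes had an MNase peak within 5 kb, so the 0 is no result about Zic5 and Zic2. No difference between the 2 pairs was tested.

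Six3, from 85613608 to 85626191 on chromosome 17, had 2 MNase peaks within 5 kb. The annotated span of Six3 begins below its listed start at 85620834. The peak inside the span was 450 bp wide, from 85618051 to 85618500, and lay 2334 bp upstream of that start. It covered the start of Six3os1 at 85618396, and the capitals in the sequence above mark the bases it shares with that promoter. The other peak, 300 bp from 85611301 to 85611600, lay inside Six3os1. It was 2008 bp outside the span of Six3 and 9234 bp upstream of the listed Six3 start. Both peaks therefore overlapped Six3os1, whose span runs from 85601932 to 85618396, and covered 3.92% of it. Neither lay over the listed start of Six3 itself.

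Six2, the neighbour of Six3 on the same chromosome, from 85662736 to 85688254, had no peak within 10 kb in either list. Its nearest MNase peak was the one at the Six3os1 start, 44.2 kb away. Six3 and Six2 are transcribed toward each other, and the 36.5 kb between them held 0 peaks. The start of Six2, at 85688254, was 69.8 kb from any MNase peak. Of the pair, the peaks thus lay on the side of Six3 that faces away from Six2.

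Six6, from 72939882 to 72944899 on chromosome 12, held 1 MNase peak of 750 bp, from 72943501 to 72944250. This was the widest peak within 5 kb of any of the 8 genes, and 78.3% of the peaks in the MNase list were narrower. It lay 3619 bp downstream of the Six6 start and ended 649 bp before the 3′ boundary of the gene. Like the touching pair in Zic1, but unlike the third peak there, it was nearer to the 3′ end than to the start.

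Six4, from 73099609 to 73114031, had no MNase peak within 10 kb, the nearest being 38.4 kb away inside Mnat1, a gene whose product belongs to the CDK-activating kinase and which overlaps Six4. Among pairs of neighbouring coding genes at most 100 kb apart, 2.43% had an MNase peak between them (407 of 16782). The stretches between Zic5 and Zic2 and between Six3 and Six2 had 0.

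The distance of 5 kb set which peaks were counted at some genes. The peaks inside it that were farthest from a gene were those 1483 bp from Zic1 and 2008 bp from Six3. The nearest outside it were the pair at the 3′ end of Zic1, at 5881 and 6481 bp from Zic4, and a peak of 450 bp at 6432 bp from Six6. At 50 kb, 6 of the 8 genes had an MNase peak, where 11.3% of all coding genes had. The number of peaks within that distance of Six6 was 10 and of Zic1 and Zic4 7 each, against 1 each for Six2 and Six4 and 0 for Zic2 and Zic5. The 7 were the same peaks for Zic1 and Zic4, and part of them lay in the neighbouring gene Gm29478. Most of the 10 near Six6 lay in the neighbouring gene 4930447C04Rik.

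**Figure D2:**
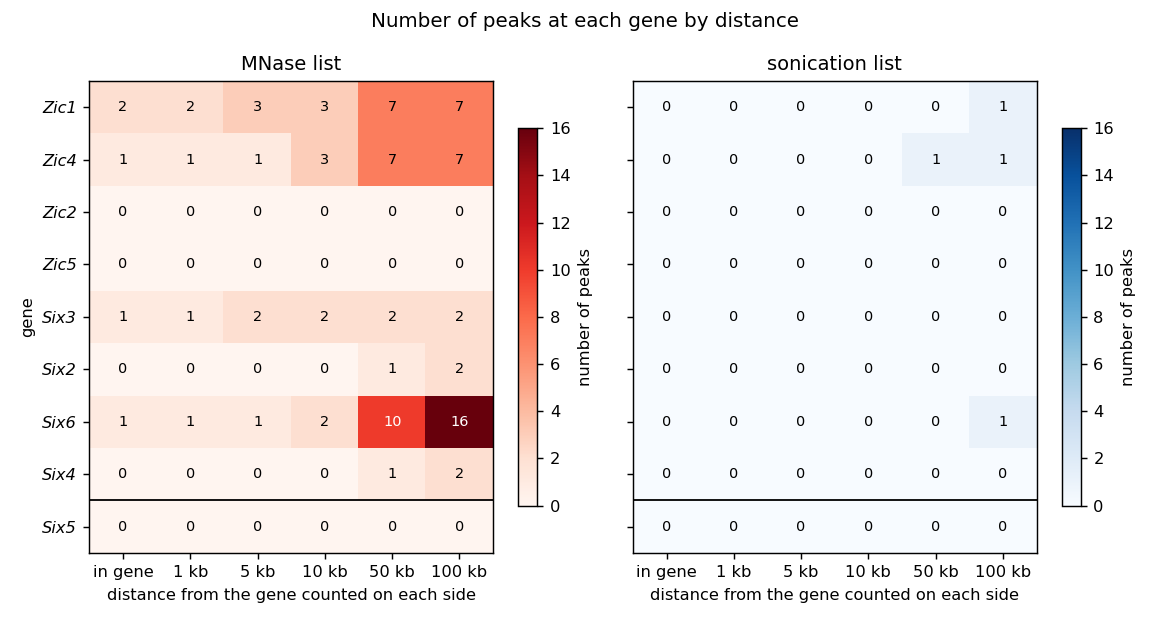
Number of MNase peaks (left) and sonication peaks (right) in each gene and within 1, 5, 10, 50 and 100 kb of it, with the 8 genes above the line and Six5 below. MNase counts reach 7 at Zic1 and Zic4 and 10 at Six6 within 50 kb, and stay at 0 at Zic2, Zic5 and Six5 out to 100 kb.

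Measured from start sites, 4 of the 7 genes with a listed promoter had an MNase peak within 5 kb of a start (2.93% of 17492 coding genes with a listed promoter had) and 0 of the 7 had one within 1 kb (1.78% of those coding genes had). The order, from nearest to farthest, was Zic4 at 1.12 kb, Zic1 at 1.48 kb, Six3 at 2.33 kb, Six6 at 3.62 kb, Six4 at 39.0 kb, Six2 at 69.8 kb and Zic5 at 171 kb. No promoter of the 7 genes was overlapped by an MNase peak, and 1.06% of coding genes with a listed promoter had such an overlap. With 7 genes, a count of 0 is not set apart from either share.

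Sonication peaks were absent within 5 kb of all 8 genes, where 3.38% of all coding genes had one, and 0.957% of those of like length. A count of 0 among 8 genes is near that background and is no result about them. The nearest sonication peaks, each of 300 bp, were 40.2 kb from Zic4, 63.7 kb from Zic1 and 72.0 kb from Six6. At the other genes they were 195 to 531 kb away. None of the 6 MNase peaks at the genes overlapped a sonication peak, as was the case for all but 47 of the 2840 MNase peaks. None of the 8 genes lay in a broad domain of the authors' domain list. The share of all coding genes in such a domain was not counted, so nothing is read from this.

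Six5, a gene of the same family as Six2 that was not among the 8 and that adjoins the myotonic dystrophy gene Dmpk on chromosome 7, had its nearest MNase peak 210 kb away.

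Other families of developmental transcription factors also had MNase peaks at part of their members, and no difference between families was tested. Of the 8 genes, 4 had a peak within 5 kb, against 5 of 9 Pax genes, 3 of 6 Irx genes and 6 of 14 Nkx genes. The share of all coding genes with such a peak was 5.28%. For peaks in the gene or within 1 kb the number was 2 of the 14 Nkx genes, and 4 of the 8, 5 Pax genes and 3 Irx genes as before. Among all coding genes, 4.13% had a peak in the gene and 4.56% within 1 kb. The highest number of peaks at a gene was 3 among the 8, at Zic1, against 9 at Pax3, a gene of neural crest and muscle, 7 at the Iroquois gene Irx2 and 7 at Nkx6-1, a gene of ventral neural progenitors. These counts were not adjusted for gene length. Its median was 10.1 kb over the 8, 55.0 kb over the Pax genes, 6.08 kb over the Irx genes and 3.65 kb over the Nkx genes. The share of a gene and its 5 kb flanks covered by MNase peaks reached 10.2% at Zic1, against 16.4% at Pax9, 19.4% at Irx1 and 54.2% at Nkx6-1. The median covered share was 0.890% over the 8, 0.919% over the Pax genes, 5.49% over the Irx genes, 0 over the Nkx genes and 0 over all coding genes. Sonication peaks lay within 5 kb of 1 gene of these families, Irx2, where 3.38% of all coding genes had one.

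**Figure D3:**
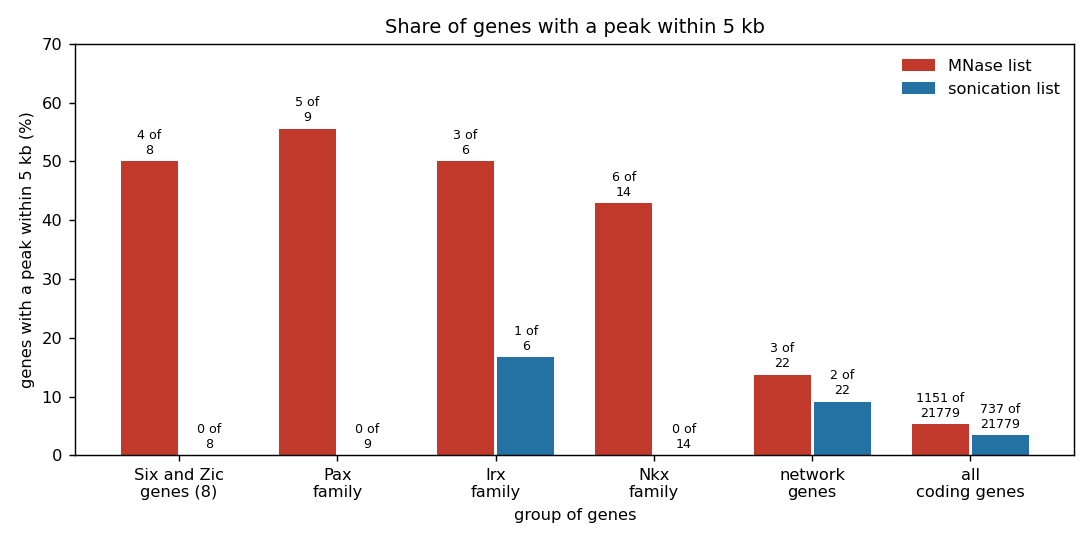
Percentage of genes with an MNase peak (red) or a sonication peak (blue) within 5 kb, for the 8 genes, 3 other families, genes that work with Six-family and Zic-family factors, and all coding genes; numbers above the bars are genes with a peak of all genes in the group. The MNase bars stand at 50% for the 8 genes and at 5.28% for all coding genes. Pax3 and Pax6 are counted both in the Pax family and in the genes that work with Six-family and Zic-family factors.

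Among 22 genes known to work with these factors, which included the Eya and Dach cofactors of Six-family proteins, eye field regulators and the Hedgehog pathway with its Gli factors, 3 had an MNase peak within 5 kb: Sox2, Pax3 and Ptch1. That is 13.6% of the list, where 5.28% of all coding genes had one, and with 22 genes nothing is read from the difference. Sox2, a factor that maintains neural stem cells, had 2 peaks, Pax3 had 9 and Ptch1, the Hedgehog receptor gene, had 1. Pax3 and Pax6 were also counted among the Pax genes above. None of the Eya or Gli genes, Shh, Pax6, Rax, Lhx2 or Otx2 had an MNase peak within that distance. Sonication peaks lay at 2 of the 22, where 3.38% of all coding genes had one: Dach1, with 1, and the X-linked gene Dach2, with 3. The remaining members of the list, Smo, Sufu, Foxd3, Myod1 and Myog, had no peak of either list.

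Likeness in pattern was measured as the Euclidean distance between a gene's number of peaks and covered share in the 2 lists and the medians of the 8 genes. The most alike coding genes outside the families were Tmprss11e, a serine protease gene, Gad1, the gene of a GABA-synthesising enzyme, and Eif2s3x, a translation factor gene on the X. Each had 1 MNase peak and 0 sonication peaks within 5 kb, and a covered share of 0.889%, 0.887% and 0.884% in that order. The distance was 0.50 for each, and the medians fall between genes with peaks and genes without, so none of the 8 genes has this pattern itself. Coding genes without any peak lie almost as near to the medians, so little is read from this likeness.

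Among the 7 genes with a listed promoter, promoter CpG content did not separate the genes with peaks from those without. No MNase peak overlapped these promoters, so the values do not describe the peaks, and with so few genes nothing further is read from them. Expressed as CpG observed over expected, over the 300 bases of a listed promoter, it was 0.969 at Zic1, 0.747 at Six3, 0.689 at Six6 and 0.545 at Zic4, the genes with an MNase peak within 5 kb. At genes without, it was 1.13 at Six2, 0.713 and 0.640 at the 2 start sites of Six4, and 0.510 at Zic5. The groups overlapped, with the highest and the lowest value both at genes without a peak. The value at Six2 was higher than at 98.2% of the 21263 listed coding promoters, and the median was 0.701 over the 8 promoters of these 7 genes and 0.567 over all coding promoters. Over the 200 coding promoters that an MNase peak overlapped, it was 0.781.

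**Figure D4:**
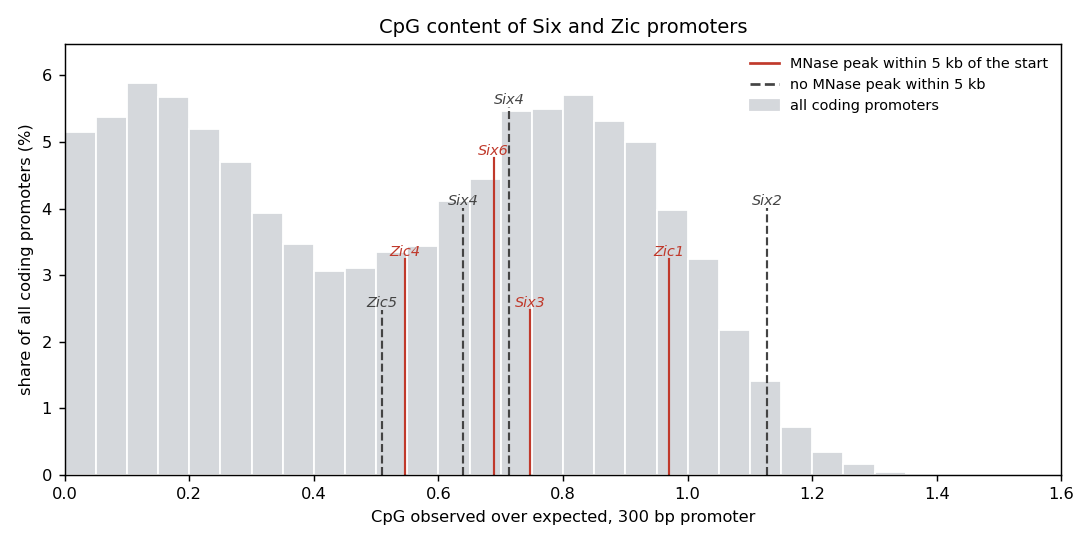
CpG observed over expected in 300 bp promoters: grey bars give the percentage of all coding promoters in each bin of the horizontal axis, and vertical lines mark the promoters of the 7 genes, red and solid with an MNase peak within 5 kb of the start, dark and dashed without; line heights carry no value. Solid and dashed lines intermix between Zic5 at 0.510 and Six2 at 1.13.

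Of 4 motifs searched on both strands of the 8 listed promoters of these 7 genes, TCAGGTT was found in 2, where 3.85% of all coding promoters hold it. In Six6 it began at position -157 relative to the start, on the strand of the gene. In Six4 it lay on the opposite strand, so that the gene's own strand reads AACCTGA, beginning at position -97. The motif CCTGCTG, the core of sites bound by Zic proteins, was found in 0 of the 8 promoters and in 10.5% of all coding promoters. GAGAGA was found in 3 of the 8 and in 22.4% of all, and the E-box CANNTG in 3 of the 8 and in 69.0% of all. These matches are letters in a window. Of the genes that hold TCAGGTT, Six6 had an MNase peak within 5 kb of its start and Six4 did not.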

How the data were processed

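From each experiment the authors deposited positions of peaks, and from the series a list of broad domains. The submitters' processing notes give Bowtie 0.12.9, MACS2, bcl2fastq and mm10 with no roles, and cells of the MNase list name SeqMonk. Within an experiment, every library's labels point to the same list, which was therefore taken as pooled. The part played in it by wild-type and whole cell extract libraries was not given in the sources used here. Starts fall 1 bp after multiples of 150 bp and the smallest width is 300 bp, so widths carry steps of 150 bp. Only positions were used, since the value columns are empty. The score per domain that the authors deposited was not used, its scale being unstated.

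Genes came from a RefSeq table (GRCm38.p6, the assembly of mm10) without strand or exons; 394 records in the initial 3 Mb of chromosomes other than Y, mitochondrial ones included, were left out, and 49603 were used, 21779 of them coding. Strand and start sites came from the promoter table. A peak was counted at a gene when at least 1 bp lay in it or within 5 kb (Python 3.11.15, pandas 2.3.3). Counts were checked on simulated peaks. No statistical test was run. The members and lists were chosen with earlier results of these data known. Genes named were the members, Six5, genes overlapping, between or next to them, listed genes with a peak, and the 3 most alike. Some listed genes are not reported here. Genes with the most peaks in the other families, and listed genes without a peak, were named after their values were seen. Alternatives tried were other distances, wider peaks only, merged peaks, more overlap and other bounds of the stretches.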

Additional observations from a re-analysis of the deposited data

How the results depend on the processing

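The 4 genes with an MNase peak within 5 kb numbered 4 also in the gene alone, within 1 or 10 kb, with peaks wider than 300 bp, with at least 50% of the peak inside and with peaks up to 150 bp apart merged, and 6 within 50 kb. The count of genes with a sonication peak was 0 under all of these settings except 50 kb, where it was 1 and 7.84% of all coding genes had one. The MNase shares of all coding genes were 4.13% in the gene alone, 4.56% within 1 kb and 6.03% within 10 kb. Of the genes that work with Six-family and Zic-family factors, 2 had an MNase peak in the gene alone or within 1 kb. With peaks wider than 300 bp, 1 had a sonication peak. The stretch of Zic1 and Zic4 held 0 MNase peaks by the overlap of the spans, 1 between start sites (a bound chosen after seeing the data) and 3 with the spans and 5 kb added; that of Six3 and Six2 held 2 with the spans and 5 kb added. The settings for the genes that work with Six-family and Zic-family factors and for the Pax, Irx and Nkx genes were likewise chosen after seeing the data. Nkx genes with an MNase peak numbered 2 in the gene alone or within 1 kb, and Irx genes with a sonication peak 0 in the gene alone, within 1 kb or with at least 50% of the peak inside, and 2 within 50 kb. Of single genes, MNase peaks at Six3 numbered 1 in the gene alone, within 1 kb or with peaks wider than 300 bp, and within 10 kb there were 2 at Six6 and 3 at Zic4. At Zic1 they numbered 2 in the gene alone, within 1 kb or with peaks up to 150 bp apart merged. The bounds of the stretches differ in length. No paired analysis was possible because the lists are pooled and no result comes from a test, and for the same reason no replicate was left out. Depth per library is unknown.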

Other observations

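The gene below Six6, 4930447C04Rik, also listed as Six6os1, held 10 MNase peaks of 300 to 750 bp between 72883351 and 72917100 on chromosome 12, which covered 15.9% of its span. As many or more in a gene were found in 12 of 21779 coding genes (0.0551%), with peaks counted unmerged. Some of the 10 peaks touched or lay 150 bp apart, so merging would lower their number. It lies 21.9 kb from Six6 and held 0 sonication peaks. Above Zic4, the non-coding gene Gm29478, which begins 14.1 kb away and spans 202 kb, held 5 MNase peaks and 1 sonication peak, and that sonication peak did not overlap any MNase peak. These genes were chosen for mention by the rule on neighbours, and no test of their peak numbers was made.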
